A study of Mus musculus with 23 samples.

Results

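The 9 genes described here mark microglia, the resident macrophages of the brain, in the state they hold in undisturbed tissue. They are Cx3cr1, P2ry12, Tmem119, Csf1r, C1qa, C1qb, C1qc, Aif1 and Trem2, out of 18578 genes measured. They were chosen by name as microglial markers, with earlier results of these data known. None of the 9 passed an adjusted p of 0.05 between genotypes or with foot-shock, while the levels of all but Aif1 varied closely together from library to library. RNA of brain tissue, with no region named, was sequenced in 23 libraries. HT shock (6 libraries) were mice heterozygous for the Grin2b allele C456Y that received foot-shock (brief current through a cage floor, used as an aversive stimulus), and HT control (6) were heterozygotes without it. WT shock (5) and WT control (6) were wild-type mice with and without foot-shock. Grin2b encodes GluN2B, an NMDA receptor subunit of neurons, and the labels call the HT genotype heterotype. All groups were male C57BL/6J mice. The sample labels give postnatal day 17 and the series text adult age, so the age is unresolved, and age bears on microglial gene levels. Whether every library is from its own mouse is not stated, so the p-values reflect only how these libraries spread, which could be technical.

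Microglia survive on signalling through CSF1R, a receptor tyrosine kinase whose ligands are CSF1 and IL-34. They sense neurons through CX3CR1, the receptor of the neuronal chemokine CX3CL1, and sense released nucleotides through the purinergic receptor P2RY12. They also make C1q, the recognition molecule of the classical complement pathway, which is assembled from A, B and C chains and tags synapses for removal during development. TREM2 is a lipid-sensing receptor that signals through the adaptor TYROBP. AIF1, also called IBA1, is a calcium-binding protein of the actin cytoskeleton used to stain microglia, and TMEM119 is a membrane protein that separates microglia from other brain macrophages. In damaged or aged brain, microglia typically lower P2ry12, Tmem119 and Cx3cr1 and raise lysosomal and lipid-handling genes.

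The 3 C1q genes lie side by side on chromosome 4 of GRCm38, all on the minus strand, within 18.7 kb (136880129 to 136898803), in the order C1qb, C1qc, C1qa. The other members are dispersed. Cx3cr1 lies on chromosome 9 (119901616 to 120069879), P2ry12 on chromosome 3 (59216272 to 59262871) and Tmem119 on chromosome 5 (113793729 to 113800516). Aif1 (35170991 to 35176068) and Trem2 (48346401 to 48354147) are both on chromosome 17. All 9 are protein coding. Counted without regard to strand, exons of Csf1r share 873 bases with those of Hmgxb3, and exons of P2ry12 share 9 bases with Med12l. Part of the Csf1r value is uncertain if reads of Csf1r and Hmgxb3 were mixed, which was not tested. The other 7 members share no exon base with another measured gene.

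Promoter sequences were available for 6 of the 9 genes and are credited to RefSeq (GRCm38.p6). They were searched because most of these genes moved together. The 250 bases before the transcript start are shown, 5′ to 3′ on the gene's strand, for 2 neighbouring C1q genes, for P2ry12 and Trem2, and for Aif1, the member least like the rest. Capitals mark GAGGAA and GGAAGT, both found within the recognition sequence of PU.1, the macrophage transcription factor encoded by Spi1, or their reverse complements TTCCTC and ACTTCC.
C1qb, chr4:136886201-136886450, minus strand: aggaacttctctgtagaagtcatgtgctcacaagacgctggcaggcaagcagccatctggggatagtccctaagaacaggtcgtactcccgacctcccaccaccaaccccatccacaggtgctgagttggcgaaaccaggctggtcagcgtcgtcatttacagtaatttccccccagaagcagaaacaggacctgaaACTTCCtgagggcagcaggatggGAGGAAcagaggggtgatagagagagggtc
C1qc, chr4:136892915-136893164, minus strand: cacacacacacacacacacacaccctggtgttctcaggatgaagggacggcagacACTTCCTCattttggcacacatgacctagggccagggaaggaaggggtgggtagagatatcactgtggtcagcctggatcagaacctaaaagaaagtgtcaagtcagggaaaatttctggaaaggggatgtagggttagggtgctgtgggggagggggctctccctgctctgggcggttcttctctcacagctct
P2ry12, chr3:59262986-59263235, minus strand: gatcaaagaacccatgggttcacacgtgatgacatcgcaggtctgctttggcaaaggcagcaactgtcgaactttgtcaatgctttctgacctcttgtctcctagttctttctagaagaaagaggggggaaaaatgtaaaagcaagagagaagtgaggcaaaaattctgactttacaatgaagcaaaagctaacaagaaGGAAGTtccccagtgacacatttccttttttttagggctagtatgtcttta
Aif1, chr17:35176053-35176302, minus strand: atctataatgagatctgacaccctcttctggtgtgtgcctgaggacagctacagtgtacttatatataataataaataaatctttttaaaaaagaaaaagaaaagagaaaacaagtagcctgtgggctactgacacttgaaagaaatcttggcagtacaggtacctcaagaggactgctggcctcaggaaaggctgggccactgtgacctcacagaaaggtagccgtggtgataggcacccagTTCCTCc
Trem2, chr17:48346151-48346400, plus strand: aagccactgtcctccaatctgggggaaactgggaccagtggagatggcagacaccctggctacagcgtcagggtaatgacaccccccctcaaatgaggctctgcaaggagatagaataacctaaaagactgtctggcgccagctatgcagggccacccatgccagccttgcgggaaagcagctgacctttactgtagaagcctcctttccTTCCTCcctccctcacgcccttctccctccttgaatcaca
GAGGAA occurred on either strand in 4 of the 6 promoters, against 23.3% of 32851 RefSeq promoters of the same length, and GGAAGT in 3 of 6, against 19.7%. At least one of the motifs was present in 5 of 6, against 36.7% of all promoters, and Cx3cr1, whose promoter is not shown, was the one without. C1qb held both, 53 and 30 bases before the start. In C1qc both lay on the opposite strand 195 and 193 bases before it, where they overlap. TATAAA, the core of the TATA box, was in 0 of the 6, against 12.4% of all. A match is a run of letters and not a measured binding site, and a link between these motifs and the shared variation was not tested.

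All 9 genes were detected in every library. Set per kilobase of exon so that genes can be compared, the level over the 23 libraries was highest for C1qb (561 ± 99.7 normalized counts per kb, mean ± SD) and C1qa (505 ± 97.9), followed by C1qc (251 ± 53.3) and Csf1r (179 ± 38.3). P2ry12 (131 ± 30.7), Tmem119 (119 ± 30.8) and Cx3cr1 (85.9 ± 24.0 normalized counts per kb) came next, and Aif1 (38.8 ± 9.17) and Trem2 (33.8 ± 5.68) were lowest. The neighbours C1qb and C1qa, P2ry12 and Tmem119, and Aif1 and Trem2 differed by less than 1 SD. Lengths were the union of all annotated exons (4946 bases for Trem2, 1040 for C1qa), which lowers the level per kb of genes with long rare transcripts. In bulk tissue fewer microglia and less RNA per microglial cell cannot be told apart. Values below are normalized counts as deposited, and differences are on the log2(normalized count + 1) scale with their limma SE.

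**Figure D1:**
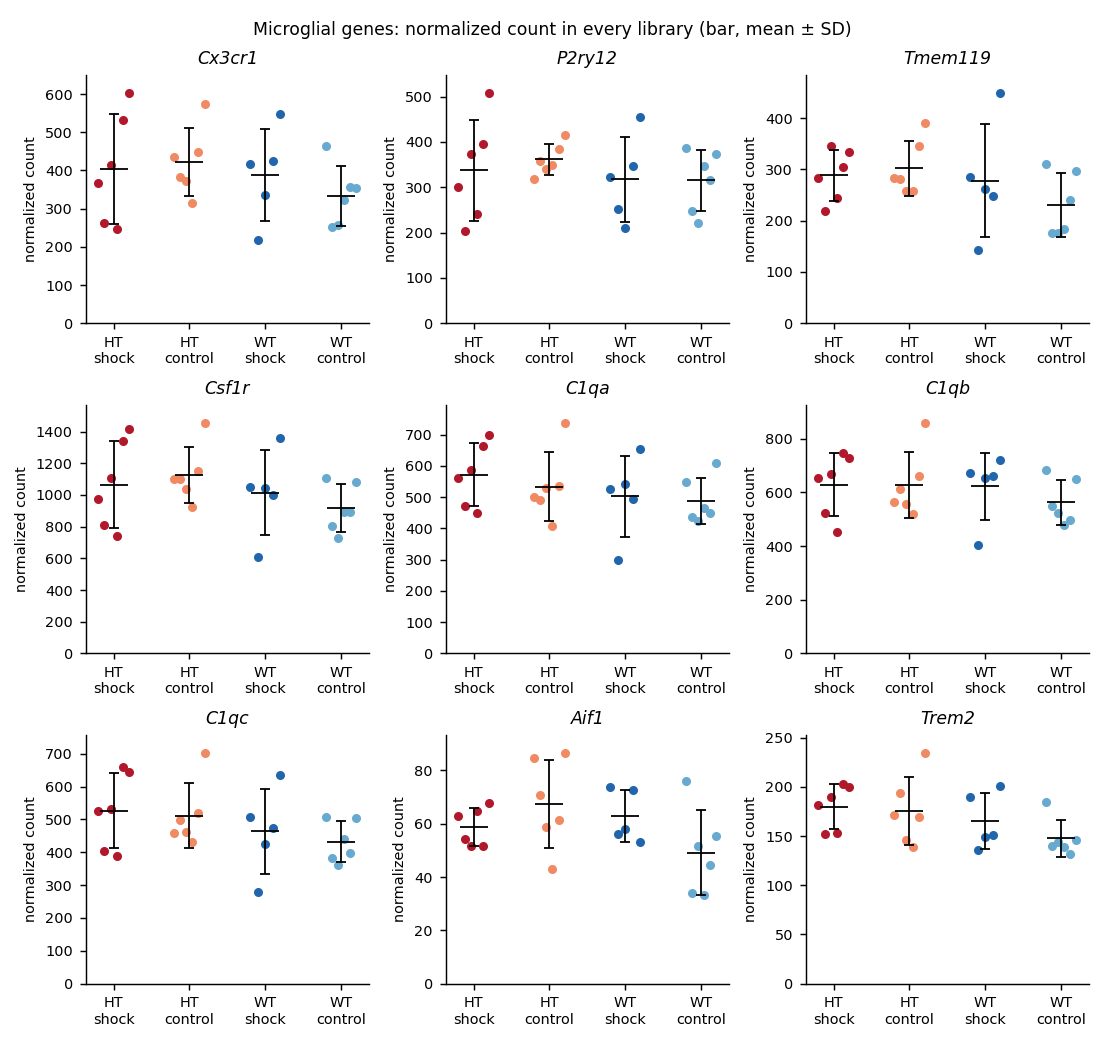
Normalized count (y axis, from 0) of each of the 9 genes in every library (points), with the mean and SD of HT shock, HT control, WT shock and WT control (left to right). The groups overlap in every panel, and C1qb in WT shock, for example, spans 405 to 722.

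Among the sensing receptors, Cx3cr1 had 246, 391 and 603 normalized counts in HT shock (lowest, median, highest) and 314, 409 and 574 in HT control. In WT shock it had 416, 219, 335, 424 and 547, and in WT control 251, 338 and 464. The groups overlapped widely, and the highest single value was in HT shock and the lowest in WT shock. P2ry12 ranged from 203 to 508 in HT shock (median 337) and from 319 to 416 in HT control (median 354). The 5 WT shock libraries had 323, 253, 211, 347 and 454, and WT control ranged from 221 to 387 (median 331). HT control was the tightest group for P2ry12, at 362 ± 34.5 (SD, n = 6), against 337 ± 112 in HT shock. Tmem119, the microglial surface marker, lay between 219 and 345 in HT shock (median 295) and between 257 and 390 in HT control (median 283). WT shock libraries had 286, 143, 261, 249 and 449, and WT control lay between 176 and 311 (median 212). All 6 HT control libraries lay above the WT control median, and 2 of them above its highest library.

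Csf1r, the survival receptor (chromosome 18, 61100598 to 61132149, plus strand), had 742, 1041 and 1414 normalized counts in HT shock (lowest, median, highest) and 926, 1099 and 1453 in HT control. In WT shock it had 1053, 608, 1044, 1000 and 1361, and in WT control 727, 894 and 1105. The ranges of all 4 groups overlapped, and the lowest and highest values stood in WT shock replicate 2 and HT control replicate 6.

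The C1q chains varied closely together across libraries. C1qa lay between 451 and 700 in HT shock (median 574) and between 409 and 737 in HT control (median 515). WT shock libraries had 527, 299, 542, 494 and 655, and WT control lay between 425 and 608 (median 457). WT shock replicate 2 was the lowest of all libraries for all 3 chains, and HT control replicate 6 the highest. C1qb averaged 629 ± 117 in HT shock, 629 ± 122 in HT control (SD, n = 6 each), 623 ± 125 in WT shock (n = 5) and 564 ± 84.2 in WT control (n = 6). C1qc averaged 526 ± 114 in HT shock, 511 ± 98.0 in HT control, 464 ± 130 in WT shock and 432 ± 62.8 in WT control (SD, same n). The ranges of the 4 groups overlapped for every chain, although the C1qc means of both HT groups and the C1qa mean of HT shock exceeded those of WT control by more than the WT control SD.
The ratio of the chains per kilobase was steadier than any chain alone. C1qa over C1qb was 0.901 ± 0.077 over the 23 libraries, with a highest to lowest ratio of 1.35, against 2.46 for C1qa and 2.12 for C1qb themselves. By group C1qa over C1qb was 0.957 ± 0.0565 in HT shock, 0.888 ± 0.0648 in HT control, 0.839 ± 0.0723 in WT shock and 0.91 ± 0.0811 in WT control (SD). C1qc over C1qb was 0.446 ± 0.0399 over all libraries, with a highest to lowest ratio of 1.41, against 2.51 for C1qc itself. By group it lay between 0.436 and 0.498 in HT shock, 0.444 and 0.466 in HT control, 0.365 and 0.496 in WT shock, and 0.389 and 0.517 in WT control.

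Aif1 had 51.6, 58.4 and 67.7 normalized counts in HT shock (lowest, median, highest) and 43.1, 66.1 and 86.4 in HT control. WT shock libraries had 73.8, 56.2, 58.2, 72.8 and 53.3, and WT control had 33.4, 48.2 and 75.9. Aif1 was low in WT control, where 3 of 6 libraries lay below every HT shock library, but WT control replicate 1 exceeded every HT shock library. Trem2 lay between 152 and 203 in HT shock (median 186) and between 139 and 234 in HT control (median 170). It had 190, 136, 149, 151 and 201 in WT shock and lay between 132 and 185 in WT control (median 142). All 6 HT shock libraries lay above the WT shock median for Trem2, with 1 above the WT shock maximum.

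In HT shock against WT shock, which asks what the allele changes in shocked mice, 0 of the 9 genes passed, at an unadjusted p under 0.05 also 0. The background was 9.28% of 17118 genes tested (676 higher and 913 lower, limma with Benjamini-Hochberg adjustment), a number of genes that lay between 422 and 2925 when 1 library was left out. The 9 log2 differences ran from -0.09 (Aif1) to 0.21 (C1qa), with a median of 0.08, beside 0.004 for all genes. The sign of this median rested on single libraries: it was -0.087 without WT shock replicate 2 and -0.014 without HT shock replicate 6. It was 0.009 without HT shock replicate 5, 0.171 and 0.169 without HT shock replicates 2 and 4, and 0.199 without WT shock replicate 5, and -0.014 without 4 libraries that stood apart from the rest (HT control 1, HT shock 1, HT shock 6 and WT control 1). C1qa differed by 0.21 ± 0.16 (SE, limma adjusted p = 0.425) and C1qc by 0.20 ± 0.17 (limma adjusted p = 0.479). The 95% intervals of the 9 genes together reached down to a fold of 0.72 and up to 1.48, so a difference of up to that size lies within the error.

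In HT control against WT control, the comparison of genotypes without shock, 0 of the 9 passed, and 0.0% of all genes did (1895 genes at an unadjusted p under 0.05). All 9 log2 differences were positive, from 0.12 (C1qa) to 0.47 (Aif1), with a median of 0.24, beside -0.001 for all genes. Aif1 was the only member with an unadjusted p under 0.05, at 0.47 ± 0.18 (SE, limma adjusted p = 0.394). Tmem119 had 0.42 ± 0.20 (limma adjusted p = 0.454) and Cx3cr1 0.34 ± 0.23 (limma adjusted p = 0.563). One library weighed on these values: without HT control replicate 6 the median was 0.182, Aif1 stood at 0.39 ± 0.19 and C1qa at 0.02 ± 0.15. Of the 6 HT control libraries, 5 or 6 lay above the WT control median for each gene, and the ranges overlapped for all 9. Most members varied together across libraries (given below), so neither the 9 signs nor these counts are independent of one another.

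Foot-shock was compared within each genotype. With HT shock set against HT control, 0 of the 9 passed and 0.0% of all genes did (2352 genes and 0 members at an unadjusted p under 0.05, limma). That background was unstable: 2064 genes passed without HT control replicate 6 and 2792 with library weights, 0 of them members. The members had 3 positive and 6 negative log2 differences and a median of -0.07. That median turned positive when HT control 6 or HT shock 2 (0.007 each) or HT shock 4 (0.014) was left out. It was -0.028 without HT control replicate 5, -0.112 and -0.113 without HT control replicates 3 and 4, -0.124 and -0.115 without HT shock replicates 3 and 6, and -0.14 without the same 4 libraries. The lowest were Aif1 at -0.17 ± 0.18 (SE, limma adjusted p = 0.685) and P2ry12 at -0.16 ± 0.20 (limma adjusted p = 0.723). In WT shock against WT control 0 of the 9 passed and 0.0% of all genes did (637 genes and 1 member at an unadjusted p under 0.05, limma). The median log2 difference there was 0.13, with Aif1 at 0.39 ± 0.19 (SE, limma adjusted p = 0.998) and Tmem119 at 0.22 ± 0.21 (limma adjusted p = 0.998). Leaving out WT shock replicate 5 gave a median of 0.022, and leaving out WT shock replicate 2 gave 0.276. For Aif1 all 5 WT shock libraries lay above the WT control median.

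The interaction asks whether foot-shock acted differently in the genotypes. None of the 9 passed, and 0.0% of all genes did (1101 genes and 1 member at an unadjusted p under 0.05, limma). Negative signs were not particular to microglial genes, since marker lists of several other cells, given below, were also mainly negative. Of the members' log2 differences 8 were negative and 1, that of C1qa, was positive, and Aif1 stood lowest at -0.56 ± 0.26 (SE, limma adjusted p = 0.772). The median interaction was -0.15, with -0.286 and -0.278 without HT shock replicate 6 and WT shock replicate 2, and -0.082, -0.073 and -0.07 without HT shock replicates 2 and 4 and WT shock replicate 5. Without the 4 libraries it was -0.374. Averaged over both treatments, HT against WT gave 9 positive log2 differences with a median of 0.19, beside 0.004 for all genes, and 0.111 without WT shock replicate 2. Here 0 of the 9 passed, at an unadjusted p under 0.05 also 0, against a background of 14.0% of genes tested. The largest were Tmem119 at 0.27 ± 0.15 (SE, limma adjusted p = 0.211) and C1qc at 0.22 ± 0.12 (limma adjusted p = 0.218), and the smallest adjusted p belonged to Trem2, at 0.18 ± 0.09 (limma adjusted p = 0.167). The interval of Tmem119 reached a fold of 1.49, and the lowest bound of any member was a fold of about 0.90. These comparisons share groups with one another, so their values are not independent. Within a comparison, the signs of the 9 genes are not independent either, since most members varied together across libraries.

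**Figure D2:**
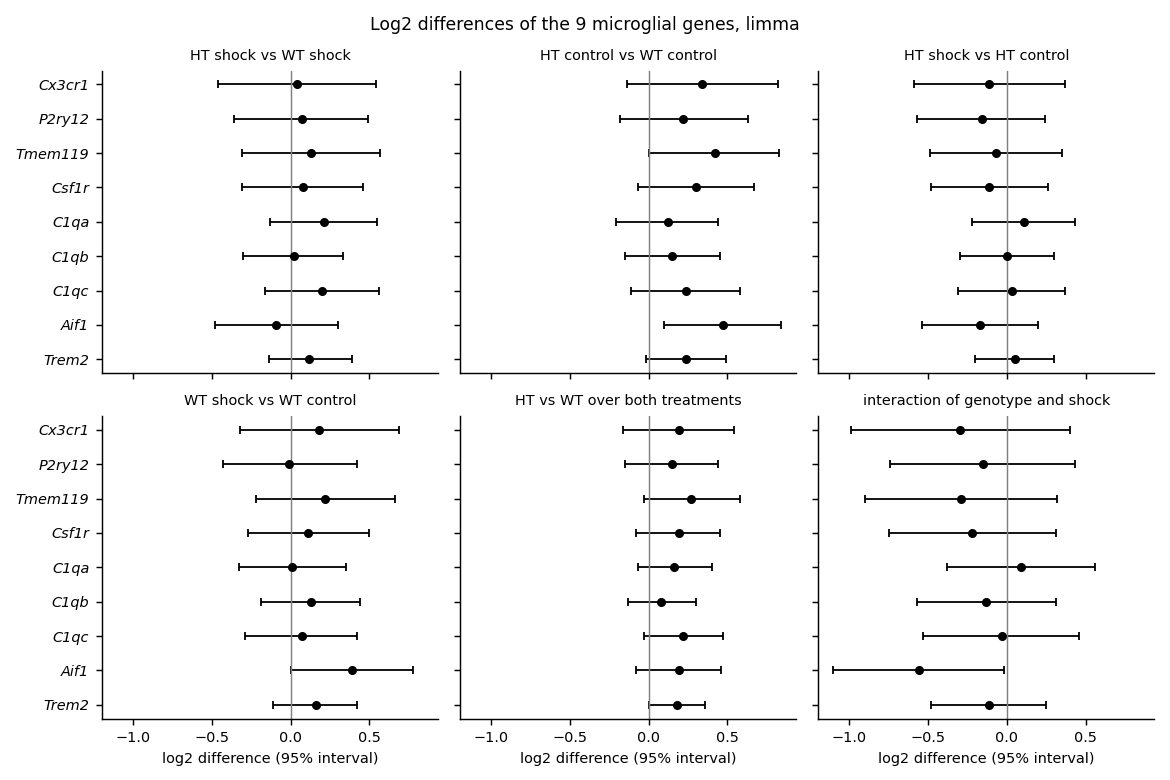
Log2 difference (x axis, points) with its 95% limma interval (bars) of each gene (rows) in the 6 comparisons (panels). In HT control vs WT control all 9 points are right of 0, from 0.12 to 0.47, and most intervals in every panel cross 0. Most of the genes varied together across libraries, so the points of a panel are not independent.

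Members varied more between libraries of a group than most genes did. The SD within groups on the log2 scale was 0.42 for Cx3cr1, 0.38 for Tmem119 and 0.37 for P2ry12, and 0.22 for Trem2, beside a median of 0.14 for all genes. Among genes of a similar level (within 0.5 on the log2 scale), 7 of the members stood at the 97.9 to 99.5 percentile of spread, while Aif1 (65.7) and Trem2 (66.7) did not. The SE of a member's log2 difference in HT shock against WT shock was accordingly 0.13 to 0.24, beside a median of 0.08.

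This spread was shared. After subtracting group means, the 36 pairs of members correlated over the 23 libraries with a Pearson r of 0.18 to 0.97 (median 0.82) and a Spearman rho of 0.14 to 0.97 (median 0.84). The first component of the 9 genes held 78.5% of their variance. The 28 pairs without Aif1 had r from 0.63 to 0.97 and rho from 0.65 to 0.97, and all passed (permutation test within groups, two-sided, adjusted over 36 pairs, adjusted p between 2e-05 and 0.0048 for r and up to 0.0016 for rho, where 1e-05 is the smallest raw p that 100000 permutations can give). With the 2 libraries farthest from the median left out, r of these pairs lay between 0.6 and 0.95. Csf1r and C1qc were the closest pair (r = 0.97), and the 3 pairs of C1q chains had r from 0.92 to 0.95. Aif1 stood apart: its 8 pairs had r from 0.18 (P2ry12) to 0.52 (Trem2), of which 2 passed by r and 0 by rho. Aif1 also had the fewest normalized counts of the 9 (mean 59.4 over the 23 libraries, with Trem2 next at 167). Whether counting error lowered its r was not tested. Within single groups the median r of the 36 pairs was 0.94 in HT shock, 0.87 in HT control, 0.82 in WT shock and 0.79 in WT control. These points share library and scaling.

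**Figure D3:**
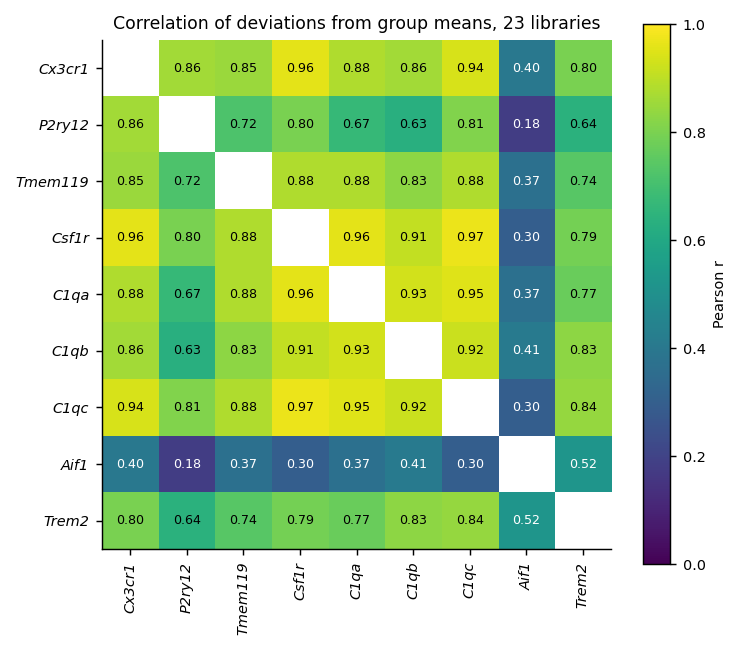
Pearson r (colour and printed value) between each pair of the 9 genes, from log2 values after subtraction of group means, over 23 libraries. Aif1 has r of 0.18 to 0.52 with the others, while the 28 pairs without it have 0.63 to 0.97.

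Libraries could therefore be ordered by the mean log2 deviation of the 9 genes. HT control replicate 6 was highest (0.52, a fold of 1.44 over the mean library), with all 9 genes among its top 5 values. It was followed by HT shock replicate 6 (0.42), WT shock replicate 5 (0.38) and HT shock replicate 5 (0.30). WT shock replicate 2 was lowest (-0.57, a fold of 0.67), before WT control replicates 2 (-0.39) and 3 (-0.38). The group means of this score were 0.07 ± 0.29 in HT shock, 0.11 ± 0.24 in HT control, -0.02 ± 0.35 in WT shock and -0.16 ± 0.24 in WT control (SD). High and low libraries occurred in both genotypes. On the first principal component of all genes (12.9% of the variance) HT control replicate 6 lay at 31.3, beyond the HT shock libraries (11.4 to 26.0). The libraries HT control 1, HT shock 1, HT shock 6 and WT control 1 lay apart on the second component, and their microglial scores were 0.06 to 0.42.

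**Figure D4:**
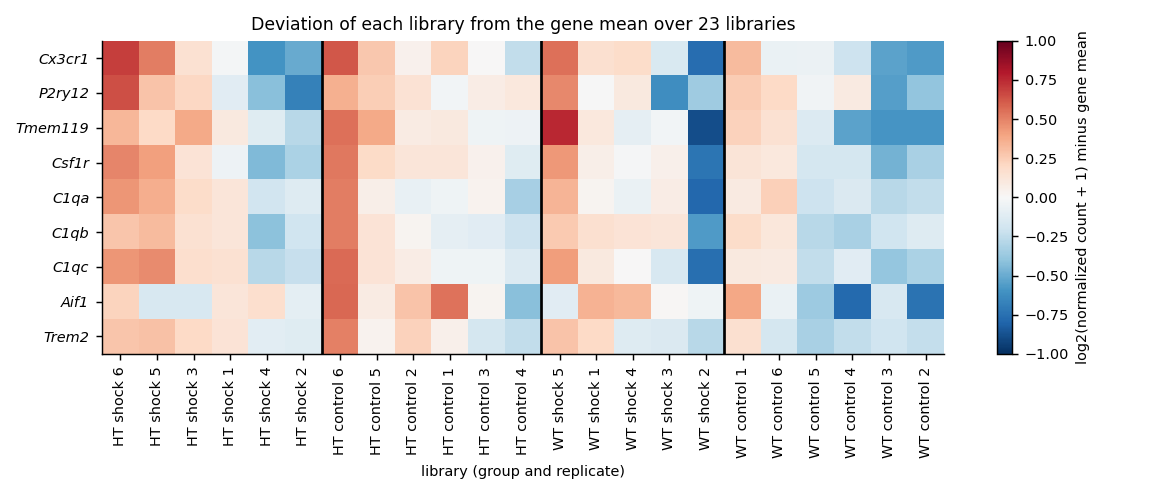
Deviation of each library (columns, by group, ordered by score within a group) from the gene's mean over 23 libraries on the log2(normalized count + 1) scale, for the 9 genes (rows). HT control 6 is high and WT shock 2 low in nearly every row, and Aif1 departs from the other rows in several libraries.

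Among 15750 genes outside the 9 whose mean reached 20, the 10 most like the members, by correlation with their mean deviation over 23 libraries, included Olfml3 (r = 0.97), Ctss and Laptm5 (0.95 each), Selplg and Fcrls (0.93 each), Fcgr3 (0.90), Mpeg1 (0.89), Vsir (0.87) and Gpr34 (0.83). Of the 10, 8 belong to the list of 30 other microglial identity genes. Only 18 genes in all had r over 0.8. Of the 30 identity genes, 0 passed in any of the 6 comparisons (limma), and in HT control against WT control 24 were positive with a median log2 difference of 0.14. Slc2a5, a fructose transporter, had 0.82 ± 0.29 there (SE, limma adjusted p = 0.378), and Irf8, a myeloid transcription factor, had 0.43 ± 0.20 (limma adjusted p = 0.431).

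The ligands and partners of the member receptors were tested as a list of 13 genes. Between the shocked groups 1 was higher in HT and 0 lower, beside 3.95% and 5.33% of all genes, and over both treatments 2 were higher and 1 lower, beside 5.42% and 8.62%. Cx3cl1, the ligand of CX3CR1, had 18511, 19797 and 20605 normalized counts in HT shock (lowest, median, highest), against 17152, 17681, 19503, 19383 and 15961 in WT shock. The ranges overlapped, and Cx3cl1 was higher in HT shock by 0.14 ± 0.04 on the log2 scale (SE, limma adjusted p = 0.0469). This call was lost under median centring (adjusted p = 0.0568), with the compared groups alone (0.0569) and on omission of HT control 2 or 3, HT shock 1, 2, 3, 4 or 6, WT control 5, or WT shock 1, 2 or 5 (0.0518 to 0.133), and without the 4 libraries apart on the second component (0.101). Over both treatments it was 0.12 ± 0.03 (limma adjusted p = 0.0164), a call kept in all 32 alternatives. Its receptor gene Cx3cr1 had 0.04 ± 0.24 in HT shock against WT shock (limma adjusted p = 0.934), and Cx3cl1 did not vary with the members (r = -0.09).

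The ligands of CSF1R differed over both treatments in opposite directions. Il34 was higher in HT, with 1353 ± 83.6 in HT shock against 1196 ± 69.3 in WT shock and 1194 ± 147 in HT control against 1094 ± 92.5 in WT control (SD), a log2 difference of 0.15 ± 0.05 (SE, limma adjusted p = 0.0421). This call was lost on omission of HT control 5 or 6, HT shock 1, 2 or 4, WT control 3 or 4, or WT shock 1, 2 or 5 (adjusted p 0.0628 to 0.0769), and without the 4 libraries apart on the second component (0.0511). Csf1 was lower in HT, with 652 ± 32.4 in HT shock against 710 ± 30.6 in WT shock and 660 ± 38.7 in HT control against 729 ± 61.9 in WT control (SD). Its log2 difference was -0.13 ± 0.04 (SE, limma adjusted p = 0.028), a call lost without HT control 5 (0.0515) or WT shock 1 (0.0575). Csf1r itself had 0.19 ± 0.13 in that comparison (limma adjusted p = 0.331). Tgfb1, a cytokine on which microglial identity depends, followed the members across libraries (r = 0.75), as did Tyrobp less closely (r = 0.63).

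Of 14 tested complement genes that act with or after C1q, 0 passed in any comparison. C1s1, a protease of the C1 complex, had the smallest p in HT shock against WT shock, at -0.81 ± 0.29 (SE, limma adjusted p = 0.0694), while the C1q chains stood at 0.02 to 0.21 there. C3, the central complement protein, averaged 33.9 ± 5.54 in HT shock, 41.8 ± 19.4 in HT control, 50.6 ± 22.9 in WT shock and 32.0 ± 9.26 in WT control (SD). The complement receptor chain Itgam followed the members (r = 0.74), and the synaptic complement inhibitor gene Csmd1 ran against them (r = -0.6), both named after their values were seen.

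Genes that microglia raise on activation were represented by 17 tested genes. Between the shocked groups 1 was higher in HT, and over both treatments 1 was higher and 1 lower, in a background of 3.95% higher, and of 5.42% higher and 8.62% lower. Of the 17, 7 were positive and 10 negative between the shocked groups (median log2 difference -0.06). Over both treatments 7 were positive and 10 negative as well (median -0.08). The gene called higher in both was Cd68, a lysosomal glycoprotein of phagocytes (chromosome 11, 69664213 to 69666153, minus strand). Cd68 followed the members across libraries (r = 0.69). It had 108, 144 and 166 normalized counts in HT shock (lowest, median, highest) and 104, 115 and 150 in HT control. WT shock libraries had 83.9, 87.0, 109, 114 and 93.8, and WT control had 81.6, 105 and 147. Only the lowest HT shock library fell within the WT shock range, while HT control and WT control overlapped widely. HT shock exceeded WT shock by 0.53 ± 0.14 on the log2 scale (SE, limma adjusted p = 0.0257). Without shock, HT differed from WT by 0.16 ± 0.13 (limma adjusted p = 0.649). The interaction was 0.37 ± 0.19 (limma adjusted p = 0.775), so the effect of genotype is not shown to differ with shock. The call after shock was lost without HT shock 1 (adjusted p = 0.0601) or 3 (0.0508), or WT shock 1 (0.0627), 2 (0.063) or 5 (0.0502), and without the 4 libraries apart on the second component (0.0588). Over both treatments it was 0.34 ± 0.10 (limma adjusted p = 0.0227), kept in all 32 alternatives. The lower gene was Axl, a receptor for dying cells that other brain cells also express, at -0.17 ± 0.05 over both treatments (SE, limma adjusted p = 0.035). That call was lost without HT control 5 or 6, HT shock 1, 3 or 4, WT control 5 or 6, or WT shock 2 or 5 (0.0504 to 0.0693).

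**Figure D5:**
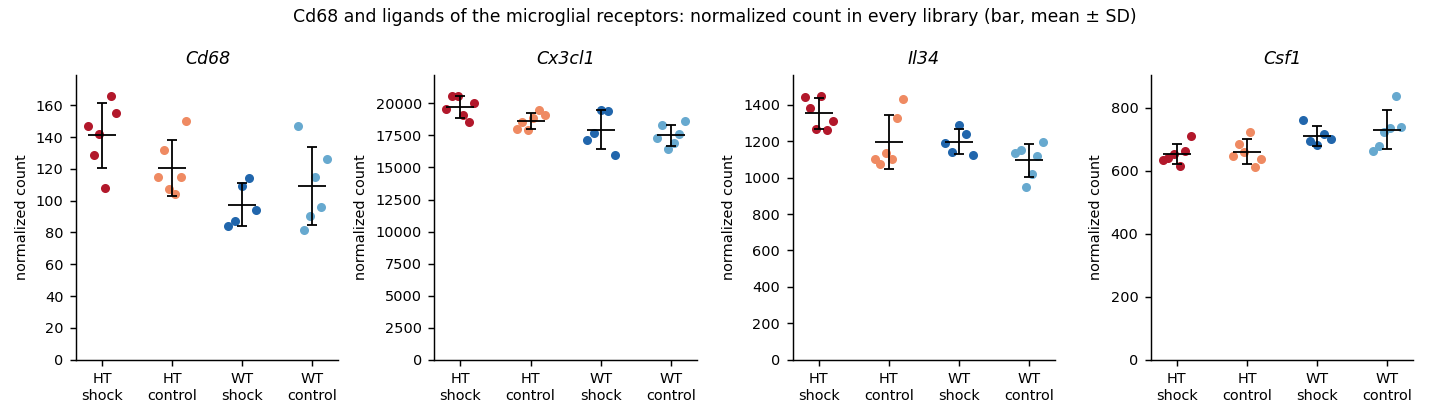
Normalized count (y axis, from 0) of Cd68, Cx3cl1, Il34 and Csf1 in every library (points), with mean and SD for HT shock, HT control, WT shock and WT control (left to right). Cd68 lies between 108 and 166 in HT shock, against 83.9 to 114 in WT shock.

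Markers of other cells of the tissue were measured beside the members, and none of those in the table was at 0 throughout a group. Border macrophage genes (9 of 12 in the table, 7 tested, 0 called) moved with the members across libraries (r = 0.74). Their summed normalized counts ranged over 332 to 603 in HT shock, 404 to 705 in HT control, 449 to 575 in WT shock and 300 to 455 in WT control, far below the members' 2984 to 5197, 3385 to 5449, 2399 to 5078 and 2886 to 4269. In HT control against WT control all 7 were positive (median log2 difference 0.35), with Mrc1, a mannose receptor, at 0.71 ± 0.27 (SE, limma adjusted p = 0.394). Their part in the members' values was not tested. The mean of 10 neuron genes ran against the members (r = -0.69, rho = -0.67), and those of astrocyte (r = 0.15), oligodendrocyte (0.15), endothelial (0.33) and blood genes (0.20) showed a weak relation. Of 10 oligodendrocyte genes 7 fell in HT shock against WT shock and 0 rose (beside 5.33% and 3.95%), led by the myelin gene Mobp at -0.33 ± 0.06 (SE, limma adjusted p = 0.00398), and of the astrocyte genes 1 of 10 was lower. Of 10 neuron genes 2 rose, namely Slc17a7, a vesicular glutamate transporter (0.25 ± 0.05, limma adjusted p = 0.0045), and Stmn2 (0.13 ± 0.04, limma adjusted p = 0.0363), and 1 fell, Map2 (-0.26 ± 0.08, limma adjusted p = 0.038). In the same comparison 8 of the 9 microglial genes were positive, and 13 of the 30 other identity genes (median log2 difference -0.06). The interaction was negative for all 10 endothelial, all 10 oligodendrocyte, all 7 border macrophage and all 8 blood genes tested. It was also negative for 9 of 10 astrocyte genes and positive for 8 of 10 neuron genes. In HT control against WT control 9 of 10 endothelial genes were positive, against 3 astrocyte, 2 oligodendrocyte and 4 neuron genes of 10 each.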

How the data were processed

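Brain RNA of 23 libraries was prepared with a stranded mRNA kit, per the labels' protocols. The authors deposited a signal per gene and library, namely normalized counts with decimals, for 18578 genes. Per the submitters' processing notes, the build was GRCm38 and the tools included DESeq2 1.26.0, Salmon 1.1.0 and R 3.6.2, with roles not given. Whole reads could not be recovered, so depth is unknown and no count model was fitted. Library totals were between 30.98 and 32.57 M normalized counts. Of 24 library columns 1 fitted no label and was left out. The titles gave the groups. Of the gene IDs 18563 had a symbol.

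Values were taken as log2(normalized count + 1), genes of mean 10 or more entered the fit (17118), and 1 limma fit over the 4 groups (limma 3.58.1, statmod 1.5.0, R 4.3.3, trend and robust moderation) gave 6 comparisons, adjusted by Benjamini-Hochberg over all genes at a threshold of 0.05. The model was tried on simulated data with independent noise for each gene. Such data lack the variation that genes of a library share, so they cannot show how it affects the calls. The permutation p-values of the pair correlations were added to a design that had planned none. Levels per kilobase used exon lengths of GENCODE M21. The named genes were the 9 members, the called genes of each other list (at most 4) or the 2 of smallest p, and the 10 most alike genes. From these a selection is printed, and 1 gene that the rule names is not reported here. The members and lists were chosen with earlier results of these data known. Alternatives were pseudocounts of 0.5 and 5, no filter, a filter of 20 in 5 libraries, median centring, the compared groups alone, 2 replicate blocks, library weights, the omission of each library and, chosen after seeing the data, of 4 libraries together. Figures were drawn with matplotlib 3.10.9 (Python 3.11.15).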

Additional observations from a re-analysis of the deposited data

Results flagged for a closer look

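In 3 of 36 groups of a member's values, 1 library stood apart by the ratio of its gap to the nearest library over the range of the group, where chance gives about 1 in 20. C1qb in WT shock replicate 2 (405 normalized counts, against 654 to 722 in the rest of WT shock) had a ratio of 0.783, over a critical value of 0.71 for 5 libraries. C1qc in HT control replicate 6 (701, against 430 to 520 in the other HT control libraries) had a ratio of 0.665, over a critical value of 0.625 for 6 libraries. Trem2 in WT control replicate 1 (185, against 132 to 146 in the other WT control libraries) had a ratio of 0.737. These libraries had the lowest score of the 9 genes (-0.57), the highest (0.52) and the highest of WT control (0.21). The scores include the flagged values, and the 36 groups are not independent, since most members varied together across libraries. Without HT control replicate 6 the log2 difference of C1qc in HT control against WT control was 0.14 ± 0.16 (SE, limma adjusted p = 0.932), against 0.24 ± 0.17 with it.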

How the results depend on the processing

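None of the 9 genes passed in any of the 6 comparisons under any of the 33 alternatives, 1764 values in all (smallest adjusted p 0.0605, Tmem119 over both treatments without WT shock replicate 5). The sign changed in 65 values, none past the threshold, and the cause was not tested. Library weights gave log2 differences, in HT shock against WT shock, of -0.038 for P2ry12, -0.021 for C1qb and -0.06 for Cx3cr1, 0.031 for C1qb in HT shock against HT control and 0.051 for P2ry12 in WT shock against WT control. Without the 4 libraries apart on the second component these were, in HT shock against WT shock, -0.014 for Csf1r, -0.07 for P2ry12, -0.06 for C1qb and -0.106 for Cx3cr1. With HT shock against HT control they were -0.001 for Trem2 and -0.084 for C1qc, in WT shock against WT control 0.058 for P2ry12, and in the interaction -0.031 for C1qa.

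Leaving out each library in turn moved signs as follows. For HT shock against HT control the ranges of the log2 difference were -0.058 to 0.091 for C1qb, -0.04 to 0.125 for C1qc, -0.244 to 0.014 for Cx3cr1, -0.124 to 0.007 for Tmem119 and -0.016 to 0.135 for Trem2. For HT shock against WT shock they were -0.129 to 0.109 for C1qb, -0.096 to 0.194 for Csf1r, -0.147 to 0.181 for Cx3cr1, -0.066 to 0.209 for P2ry12 and -0.087 to 0.324 for Tmem119. In WT shock against WT control they were -0.095 to 0.187 for C1qa, -0.06 to 0.235 for C1qc, -0.006 to 0.284 for Csf1r and -0.148 to 0.127 for P2ry12. In the interaction they were -0.081 to 0.201 for C1qa and -0.204 to 0.091 for C1qc. The median of the 9 genes ran from -0.087 to 0.199 in HT shock against WT shock and from -0.124 to 0.014 in HT shock against HT control, and kept its sign in the other 4 comparisons.

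Genes called in HT shock against WT shock numbered 2932 with the compared groups alone, 3775 with library weights and 422 to 2925 on leaving out 1 library, against 1589. They numbered 422, 497, 573 and 839 without HT shock 1, 2, 3 and 4, 756, 611, 723 and 851 without WT shock 1, 2, 3 and 5, and 2925 without HT control 6. For HT shock against HT control the same settings gave 1, 2792 and 0 to 2064 (2064 without HT control 6, 6 without HT shock 6, 4 without WT control 1 and 1 without HT control 3), and omitting the 4 libraries 1, against 0. In HT control against WT control leaving out 1 library gave 0 to 2 (without HT control 4), and in the interaction 0 to 1 (without HT control 6), with 2 under library weights.

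Deviations of same-numbered libraries of different groups correlated weakly (-0.154 to 0.194 over 33 pairs by title number, 5 over 0.1, and 3 over 0.1 by bracketed number). Such a correlation cannot decide whether libraries of a number share a batch, which was not tested. HT control 1, HT shock 1 and WT control 1 lay low on the second component of all genes (-30.37, -19.8 and -21.03). HT shock 6 did too (-23.44), while WT shock 1 did not (3.34). The replicate block by title number gave 450 calls in HT shock against WT shock and 1505 over both treatments, with log2 differences of -0.007 for P2ry12, -0.043 for C1qb and -0.041 for Cx3cr1 in HT shock against WT shock and 0.068 for P2ry12 in WT shock against WT control. The block by bracketed number gave 976 calls in HT shock against WT shock, -0.023 for C1qa in WT shock against WT control and 0.002 for C1qc in the interaction. Under the title block Cd68 (adjusted p = 0.0626) and Cx3cl1 (0.0957) after shock and Csf1 (0.0527) and Il34 (0.081) over both treatments lost their calls, and under the bracketed block Cx3cl1 after shock (0.0864), Csf1 (0.0535), Il34 (0.0503) and Axl (0.0504) did. Depth is unknown, so counting error could not be separated from other spread.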

Other observations

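Blood genes were spread most widely in WT shock among the 4 groups. S100a9, a calcium-binding protein of neutrophils, had a log2 difference of -1.87 ± 0.61 in HT shock against WT shock (SE, limma adjusted p = 0.0553), and its partner S100a8 had -1.33 ± 0.51 (limma adjusted p = 0.0931). The mean log2 deviation of 8 tested blood genes ranged from -0.74 to 0.13 in HT shock, -0.86 to 0.22 in HT control, -0.14 to 1.94 in WT shock and -0.53 to 0.72 in WT control. Of these 8 genes, 0 passed in any comparison (limma), and in WT shock against WT control all 8 were positive, with a median of 0.76.

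The endothelial tight junction gene Cldn5 was higher in HT over both treatments, at 0.28 ± 0.08 (SE, limma adjusted p = 0.0327), the only one of 10 endothelial genes to pass. Stab1, a scavenger receptor of border macrophages, had 0.44 ± 0.15 in HT control against WT control (limma adjusted p = 0.357).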
